A study of Astatotilapia calliptera and Pundamilia nyererei and Oreochromis niloticus with 31 samples.

Results

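Testes of 2 Lake Malawi cichlids, Tropheops sp. 'mauve' (TM) and Maylandia zebra (MZ), were compared for the small RNAs that map to each family of transposable elements (TEs). The comparison used 6 of the 31 libraries of the series, namely TM testes (4 libraries) and MZ testes (2 libraries), and every entry of the curated Malawi TE table. Of its 557 entries, 554 passed a minimum on low values and were tested, and they belong to 37 superfamilies, taken as the family name without its number and without the mark for an internal (INT) or long terminal repeat (LTR) entry. NA-DNA-13, Pao-18 LTR and ERV-2 LTR were below the minimum of 10 on the linear scale and were not tested.

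The series profiled small RNAs in gonads of 6 African cichlid species and in muscle of Astatotilapia calliptera (AC), the third Malawi species. The fish of all groups used here were wild-type, and no treatment is named for them. The MZ were adults, and an age in figures was not given in the sources used here for MZ or TM. According to the methods, TM and AC were reared in the laboratory in tanks holding their own species, whereas MZ were dominant adult males bred in captivity and bought from a commercial supplier. Rearing, source and species therefore cannot be told apart in this comparison. Reads of TM, MZ and AC were all mapped to the AC genome (fAstCal1.2), so a species difference in the reads and a difference in how well they map to another species cannot be told apart either. Pieces of testis were used, so fewer germ cells and fewer piRNAs per germ cell cannot be separated. According to the methods, replicates of a tissue came from individuals matched in size, and p-values measure the spread between these libraries.

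PIWI-interacting RNAs (piRNAs) are small RNAs of the animal germline that are longer than microRNAs and guide Piwi proteins to complementary transcripts. Many are made from genomic clusters rich in TE fragments, and they lead to the cleavage of TE transcripts or to silencing of TE copies. Retrotransposons move through an RNA copy, and those with LTRs carry their coding part between a pair of identical repeats. DNA transposons move as DNA, most of them through a cut-and-paste transposase. The values are regularised log (rlog) values of the 24 to 35 nucleotide reads, on a log2 scale, and are called levels here. They were normalised between libraries, so they are relative levels and not amounts of piRNA. They count reads of both strands together and are not corrected for the length of the family, so tests compared libraries and not families. The words abundant and rare, and gaps between the internal and LTR entry of an element, refer to these uncorrected levels. The rlog transformation shrinks differences of rare families, and it shrinks the spread between their libraries too. Standard errors and p-values of rare entries rest on this shrunken spread.

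Each of the 6 libraries ranked the TE families more like testes than like ovaries of AC (Spearman's rho 0.969 to 0.976 with the AC testes mean and 0.943 to 0.964 with the AC ovaries mean, over 557 entries). TE entries hold no marker genes, so the cell types of the testes could not be checked. TM libraries 1 and 3 were the closest pair, with an SD of 0.050 for the difference of their levels over families, against 0.122 to 0.182 for the other TM pairs and 0.277 for the MZ pair. Between species the SD was 0.308 to 0.356. The rlog values do not give back read counts, so whether TM 1 and 3 differ by more than sampling noise could not be settled. Counts of calls are also given with the mean of TM 1 and 3 counted as 1 sample. This covers all entries, the broad classes and internal against LTR entries, and the named calls lost are listed at the end.

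In total 129 TE entries differed between the species (limma, Benjamini-Hochberg adjusted p under 0.05), 23.3% of those tested. TM had a higher level in 58 of them (10.5%) and a lower level in 71 (12.8%). In all 129 the TM and MZ libraries did not overlap, a pattern shown by 46.4% of all entries tested (25.6% with TM above and 20.8% with TM below). Most differences were small. The median was 0.34 among the entries higher in TM and −0.41 among those lower, 15 and 27 entries differed by at least 0.5, and 1 and 6 by at least 1 on the log2 scale, where 1 is a 2-fold difference. Over all entries tested the median difference was 0.02 and the median pooled SD among libraries of one species was 0.10. The count was 66 without TM 1, 66 without TM 2, 62 without TM 3 and 106 without TM 4, and 63 with TM 1 and 3 counted as 1 sample. With MZ 1 or MZ 2 left out, 1 MZ library remains and the spread comes from TM alone. A call gained in such a fit is therefore not read as a result. With every library left out in turn, 56 entries (21 higher and 35 lower) were called each time. Scaling to the TE-mapping total turned the split to 76 higher and 57 lower, whereas the same total without NA-DNA-22, the most abundant family and 8.93% of MZ 1, gave 60 higher and 73 lower. The default TE annotation of the same libraries gave 111 calls among 682 families (16.3%).

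The calls were counted in 3 broad classes, beside shares of 10.5% higher and 12.8% lower over all entries. Among 132 entries of DNA transposons, 20 were higher and 7 lower in TM (15.2% and 5.3%), with a median difference of 0.07. Among 70 entries of LINEs, retrotransposons without LTRs, 3 were higher and 10 lower (4.3% and 14.3%). Their median was 0.02 and turned negative when either MZ library was left out. Among 348 entries of LTR retroelements, 35 were higher and 54 lower (10.1% and 15.5%). Their median was −0.01 and became 0.02 under scaling to the TE-mapping total and 0.00 under centring on the library median. Scaling to the TE-mapping total gave 26 higher and 3 lower DNA entries, 5 and 7 LINE entries, and 44 and 47 LTR entries. With NA-DNA-22 left out of that total, DNA entries gave 20 and 7 calls, LINE entries 4 and 12, and LTR entries 35 and 54. With TM 1 and 3 counted as 1 sample, DNA calls were 7 higher and 3 lower. LINE calls were then 1 and 6, and LTR calls 15 and 31. An exact two-sided permutation of 4 against 2 libraries cannot give a p below 0.133, so the class medians are descriptions.

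**Figure D1:**
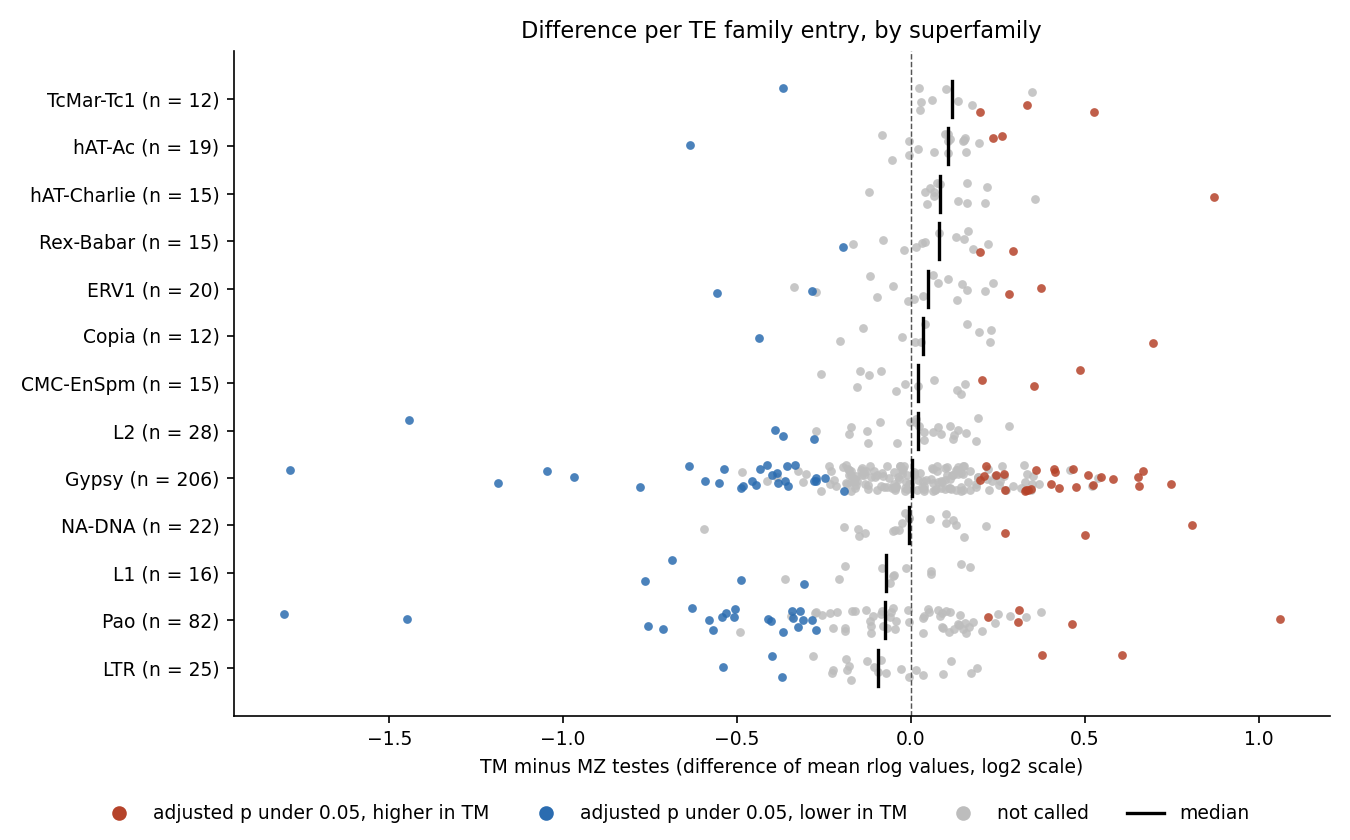
Difference between the mean rlog levels of TM (4 libraries) and MZ testes (2 libraries) for each TE entry (1 point), on the log2 scale, in the 13 superfamilies with at least 10 entries tested. Coloured points passed the adjusted p of 0.05 and black bars are medians. The Pao row holds 21 entries lower and 5 higher in TM, whereas the Gypsy row holds 27 lower and 25 higher.

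Pao retrotransposons (also known as Bel-Pao, LTR elements found in many animal genomes) had more entries called lower than higher in TM. Of 82 Pao entries, 21 were lower and 5 higher in TM (31.7% called against 23.3% of all entries), and the median difference was −0.07, which stayed between −0.08 and −0.04 under the 4 scalings. Leaving out single TM libraries gave 11 lower entries without TM 1 or TM 3, 13 without TM 2 and 18 without TM 4.

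The entry with the largest difference was the internal region of Pao-20, which carries the coding part of the element. It was at 11.16 and 11.50 in MZ and at 9.39, 9.71, 9.40 and 9.60 in TM. The groups lay far apart, and the 4 AC libraries fell between them (10.11 to 10.65). The level in TM was lower by 3.49-fold (log2 difference −1.80, SE 0.13, limma adjusted p = 0.000396). Its LTR entry moved with it, at 7.24 and 7.70 in MZ and at 6.08, 6.05, 6.22 and 5.75 in TM (−1.45, SE 0.16, limma adjusted p = 0.00142). Here the AC libraries (5.22 to 6.63) covered the TM range and stayed below MZ.

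Pao-24 internal went the other way and was the only entry at least 2-fold higher in TM. It was at 11.31 and 11.38 in MZ and at 12.52, 12.26, 12.51 and 12.33 in TM (1.06, SE 0.086, limma adjusted p = 0.000474). Every TM library lay above both MZ libraries, and AC filled the gap (11.40 to 12.21). The LTR entry of Pao-24 was at 6.28 and 6.74 in MZ and 6.998, 6.86, 7.04 and 6.996 in TM (0.46, limma adjusted p = 0.0397). This call was lost with any 1 library left out except MZ 2, with values of 0.23 (without MZ 1), 0.45 (TM 1), 0.50 (TM 2), 0.44 (TM 3) and 0.46 (TM 4).

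Pao-27 internal was at 10.18 and 10.995 in MZ and at 9.80, 10.004, 9.81 and 9.70 in TM. The MZ libraries were farther apart (0.82) than MZ 1 was from the highest TM library. The difference of −0.76 (limma adjusted p = 0.0334) became −0.35 without MZ 2 (limma adjusted p = 0.0783) and −1.17 without MZ 1, and it also missed the threshold without TM 1 (−0.75), TM 2 (−0.81), TM 3 (−0.75) or TM 4 (−0.71). Its LTR entry differed by −0.53 (limma adjusted p = 0.027), by −0.29 without MZ 2, and missed the threshold without any 1 TM library (−0.55, −0.52, −0.53 and −0.53 without TM 1, 2, 3 and 4). Both entries were also lower in Pao-19, Pao-22, Pao-34 and Pao-44, which are named because they are few. In Pao-13 the internal entry was lower (−0.71) and the LTR entry higher (0.31).

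Gypsy elements, LTR retrotransposons related to retroviruses, made up the largest superfamily. Of 206 entries, 25 were higher and 27 lower in TM (12.1% and 13.1%, against 10.5% and 12.8% of all entries). Together 25.2% were called, close to the 23.3% of all entries. Their median difference was 0.00, between −0.00 and 0.04 under the 4 scalings. Its 5 entries with the largest falls were internal ones.

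Gypsy-107 internal was at 11.39 and 12.01 in MZ and at 9.84, 9.85, 9.88 and 10.08 in TM, with AC at 10.50 to 10.99. It was lower in TM by 3.45-fold (−1.79, SE 0.16, limma adjusted p = 0.000585). Its LTR entry was at 10.35 and 10.33 in MZ and at 10.05, 10.20, 10.09 and 10.39 in TM. These values overlapped and differed by −0.16 (limma adjusted p = 0.291).

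Gypsy-50 internal was at 11.27 and 11.42 in MZ and at 10.11, 10.24, 9.98 and 10.30 in TM (−1.19, SE 0.10, limma adjusted p = 0.000552). AC lay with MZ (11.03 to 11.35), well above every TM library. Its LTR entry, one of the rarest in the table, was also lower, at 4.44 and 4.62 in MZ and 3.96 to 4.01 in TM (−0.55, limma adjusted p = 0.00208). The TM values of this LTR entry had an SD of 0.027. How far the rlog shrinkage of rare entries set this spread, and with it the p-value, was not tested.

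Gypsy-73 internal was at 11.66 and 12.06 in MZ and at 10.61, 10.94, 10.64 and 11.06 in TM (−1.05, SE 0.16, limma adjusted p = 0.00476). Gypsy-95 internal was at 10.57 and 11.16 in MZ and at 9.98, 9.71, 9.95 and 9.94 in TM (−0.97, SE 0.16, limma adjusted p = 0.00557). In Gypsy-73 the AC libraries reached into the MZ range (11.35 to 11.80), and in Gypsy-95 they overlapped both species (9.88 to 10.83). Gypsy-30 internal was at 10.94 and 11.52 in MZ and at 10.41, 10.46, 10.44 and 10.50 in TM (−0.78, SE 0.14, limma adjusted p = 0.00895), and its difference was −0.49 without MZ 2. The LTR entries of these 3 elements were not called (−0.16, 0.14 and 0.06, limma adjusted p = 0.555, 0.233 and 0.72).

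Among the Gypsy entries higher in TM, Gypsy-41 internal was at 9.74 and 10.18 in MZ and at 10.59, 10.81, 10.58 and 10.84 in TM (0.75, SE 0.14, limma adjusted p = 0.00914). AC was higher still (10.94 to 11.43). Gypsy-71 rose in both of its entries, by 0.65 in the internal entry (SE 0.083) and by 0.67 in the LTR entry (SE 0.084), each at a limma adjusted p of 0.00208. The internal entry was at 10.78 and 10.65 in MZ and at 11.47, 11.31, 11.45 and 11.25 in TM, and the LTR entry at 5.10 and 4.86 in MZ and at 5.66, 5.59, 5.68 and 5.65 in TM. This LTR entry was also rare, with an SD of 0.039 in TM, and the part of rlog shrinkage in that spread was not tested either. Gypsy-55 internal was at 10.05 and 10.49 in MZ and at 10.91, 10.89, 10.91 and 10.96 in TM (0.65, SE 0.11, limma adjusted p = 0.00725), and its difference was 0.43 without MZ 1. Gypsy-87 LTR was at 6.98 and 7.22 in MZ and at 7.77, 7.61, 7.91 and 7.45 in TM (0.58, SE 0.14, limma adjusted p = 0.0253). It missed the threshold without MZ 1 (0.46), TM 1 (0.55), TM 2 (0.61) or TM 3 (0.51).

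**Figure D2:**
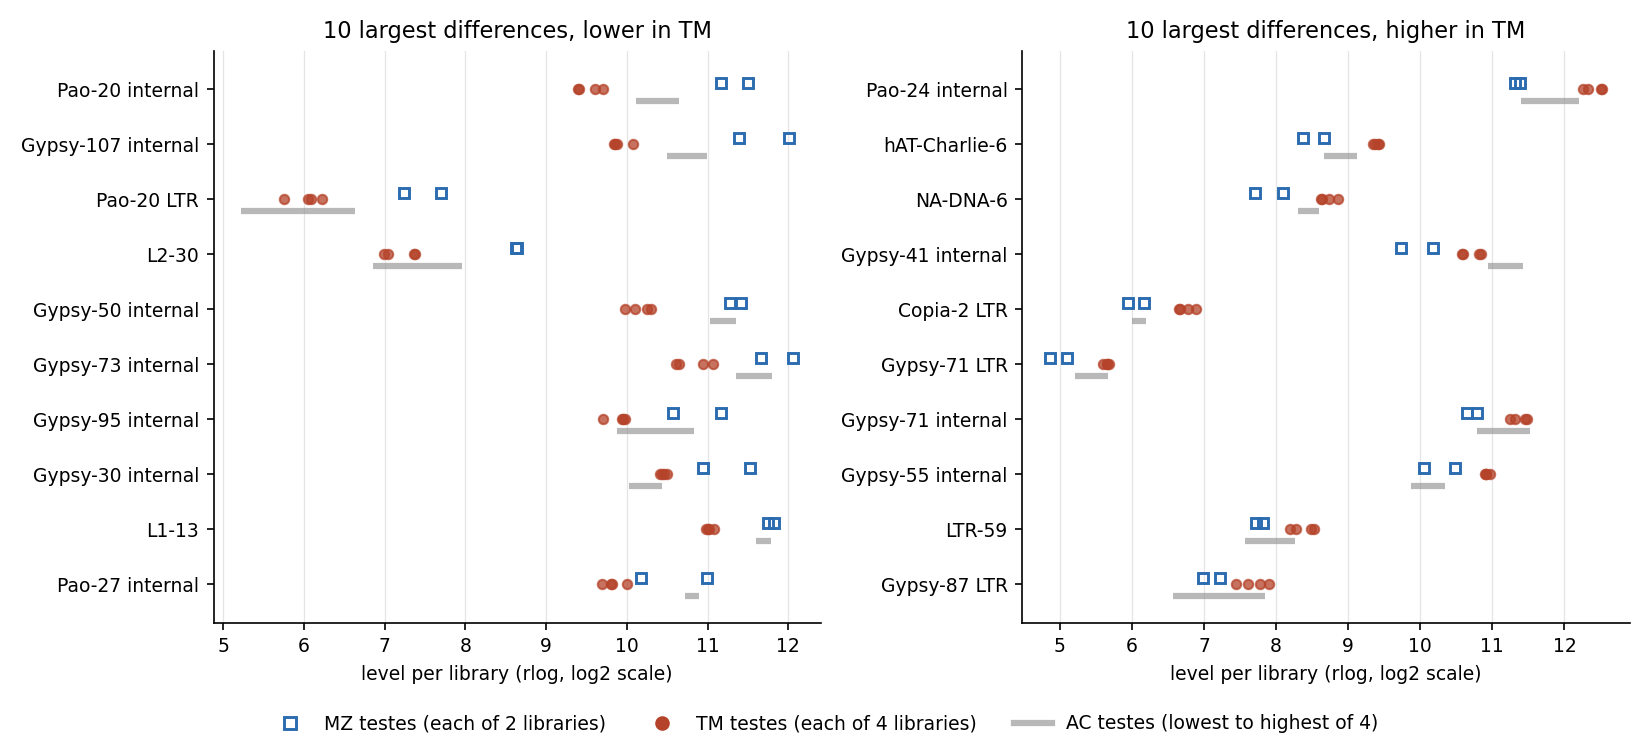
Levels per library (rlog, log2 scale) of the 10 entries with the largest called difference in each direction. Squares are the 2 MZ libraries, points the 4 TM libraries, and grey bars run from the lowest to the highest of the 4 AC testes libraries. In none of the 20 entries do the TM and MZ values overlap, and the AC bar lies between them in some rows and beside one species in others.

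The internal and the LTR entry of one element were set against each other within each library, a difference that does not depend on the scaling between libraries. Both entries were tested in 154 elements. In 38 of them (24.7%) the TM to MZ difference was not the same for the 2 entries (limma, adjusted p under 0.05), with the internal entry changing downwards relative to the LTR entry in 25 and upwards in 13. Leaving out single TM libraries gave 30 to 36 such elements (21 to 23 downwards and 9 to 14 upwards), and 32 were called with TM 1 and 3 counted as 1 sample. Where MZ 1 or MZ 2 was left out, 1 MZ library remains and the split of directions was not read. The lean downwards therefore rests on 2 MZ libraries, and whether it depends on either of them was not settled. The largest gap was that of Gypsy-107, whose internal entry exceeded its LTR entry by 1.03 and 1.68 in MZ but was below it in every TM library (−0.21, −0.36, −0.21 and −0.31). In Gypsy-95 the internal entry exceeded the LTR entry by 1.49 and 1.96 in MZ and by 0.69, 0.49, 0.67 and 0.62 in TM. Gypsy-8 and Pao-13 were called in opposite directions, down in the internal entry (−0.44 and −0.71) and up in the LTR entry (0.41 and 0.31), and they were named for being the only such elements.

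Internal entries were called more often than LTR entries of the same 154 elements, 49 against 31. With unpaired entries included, 32.7% of 162 internal and 20% of 155 LTR entries were called, against 23.3% of all entries. Of the 49, 32 were lower and 17 higher, and of the 31, 19 were lower and 12 higher. LTR entries were the rarer ones (median level 8.13 against 11.2 for internal entries), and the rlog shrinkage of rare families moves with this contrast and was not tested. Both entries were called in 17 elements, 15 of them in the same direction. Over the 154 elements, the differences of the 2 entries correlated with a Pearson's r of 0.52 and a Spearman's rho of 0.43. This describes entries that share libraries. A read matching several places was assigned to 1 of them at random, so a read matching both entries could be counted for either.

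**Figure D3:**
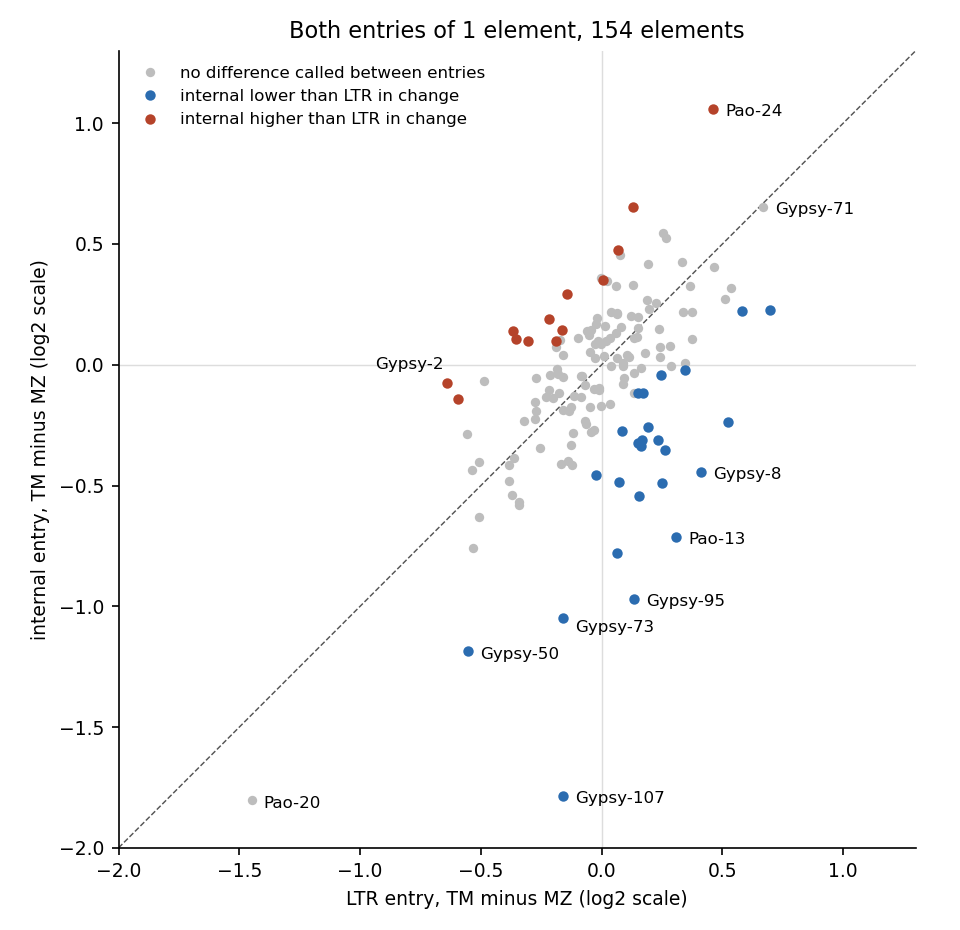
TM minus MZ difference of the internal entry (y axis) against that of the LTR entry (x axis) of the same element, both on the log2 scale, for 154 LTR elements. The dashed line marks equal change. Blue points (25) and red points (13) are elements whose 2 entries changed differently at an adjusted p under 0.05, and Pao-20 and Gypsy-71 lie near the line with both entries moved.

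The remaining LTR elements were ERV1, Copia and a few smaller groups. Of 20 ERV1 entries, which are endogenous retroviruses, 2 were higher and 2 lower in TM (20% called against 23.3% of all entries). ERV1-8 LTR was at 7.89 and 7.92 in MZ and at 7.26, 7.41, 7.21 and 7.52 in TM, below both MZ libraries throughout (−0.56, SE 0.11, limma adjusted p = 0.0106). The other lower entry was the internal entry of the same element (−0.29, limma adjusted p = 0.022). Of 12 Copia entries, 1 rose and 1 fell (16.7% called). Copia-2 LTR rose from 6.17 and 5.94 in MZ to 6.78, 6.67, 6.66 and 6.89 in TM (0.70, SE 0.10, limma adjusted p = 0.00461), while its internal entry overlapped between the species (0.23, limma adjusted p = 0.168). Among 25 entries with no superfamily beyond LTR, LTR-59 was higher, at 7.72 and 7.81 in MZ and 8.53, 8.28, 8.48 and 8.20 in TM (0.61, SE 0.11, limma adjusted p = 0.00949). LTR-28 LTR was lower, at 9.75 and 9.79 in MZ and 9.42, 9.34, 9.42 and 9.41 in TM (−0.37, SE 0.069, limma adjusted p = 0.00949). Neither of the 2 DIRS entries, retroelements that integrate with a tyrosine recombinase, was called.

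Of the 13 called LINE entries, 10 were lower in TM. This split rests on 2 MZ libraries, and directions of calls with MZ 1 or MZ 2 left out were not read. In L1, an autonomous LINE superfamily found across vertebrates, 4 of 16 entries were called (25% against 23.3% of all entries). Each was lower (25% against 12.8% of all entries). In L2, 4 of 28 entries were called lower (14.3% against 12.8% of all entries) and 0 higher, and this too rests on 2 MZ libraries. L2-30 showed the largest change, at 8.64 and 8.63 in MZ and at 7.38, 6.99, 7.36 and 7.04 in TM. The MZ libraries were almost equal, and every TM library was lower by over 1 (−1.44, 2.72-fold, SE 0.13, limma adjusted p = 0.000585). AC extended from below the TM values to 7.96 and stayed below MZ. L1-13 was at 11.75 and 11.83 in MZ and at 11.001, 11.02, 10.99 and 11.08 in TM (−0.76, SE 0.057, limma adjusted p = 0.000396), with AC beside MZ (11.60 to 11.79). The other called members of these 2 superfamilies, named because they are few, were L1-8 (−0.31), L1-9 (−0.69), L1-18 (−0.49), L2-3 (−0.39), L2-15 (−0.28) and L2-27 (−0.37). The count of lower L1 entries was 4 under each of the 4 scalings and 3 without TM 2, and 1 L1 entry was higher under scaling to the TE-mapping total.

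Rex-Babar, a LINE superfamily known from teleosts, gave 2 higher and 1 lower entry of 15 (20% called against 23.3% of all entries). Rex-Babar-17 was at 11.88 and 11.75 in MZ and at 12.13, 12.05, 12.14 and 12.11 in TM (0.29, SE 0.060, limma adjusted p = 0.0134), and 0.28 without TM 3, where it missed the threshold. Penelope-1, of a group of retroelements with an unusual endonuclease, was at 12.09 and 11.99 in MZ and 12.22 to 12.34 in TM (0.25, limma adjusted p = 0.024). RTE-BovB-4 was at 11.35 and 11.51 in MZ and 11.11 to 11.26 in TM (−0.26, limma adjusted p = 0.0334). The call of Penelope-1 was lost without MZ 2 (0.20), TM 1 (0.23), TM 2 (0.25) or TM 3 (0.24), and that of RTE-BovB-4 without MZ 2 (−0.18), TM 1 (−0.26), TM 2 (−0.24), TM 3 (−0.29) or TM 4 (−0.25). None of the 3 entries of the SINE 5S-Deu-L2, a non-autonomous retroelement, was called by limma (0 with an unadjusted p under 0.05), and 2 of them were among the 10 with the widest gap between the MZ libraries.

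Of the 132 entries of DNA transposons, 27 were called (20.5% against 23.3% of all entries), 20 of them higher in TM, and the superfamilies differed in how many entries had a higher mean in TM. In the hAT-Charlie superfamily, 14 of 15 entries had a higher mean in TM (median difference 0.08), although hAT-Charlie-6 was the only one called (6.7%). It was at 8.67 and 8.37 in MZ and at 9.41, 9.37, 9.43 and 9.35 in TM (0.87, 1.83-fold, SE 0.096, limma adjusted p = 0.00142). The 4 TM values lay within 0.08 of each other and above the AC range (8.66 to 9.12). In TcMar-Tc1, part of the widespread Tc1/mariner group, 11 of 12 entries had a higher mean in TM, 3 were called higher and 1 lower (33.3% called). TcMar-Tc1-8 was at 11.16 and 11.08 in MZ and at 11.55, 11.75, 11.59 and 11.69 in TM (0.53, SE 0.071, limma adjusted p = 0.00262). In TcMar-ISRm11, 5 of 9 entries had a higher mean in TM, and 3 were called higher and 1 lower (44.4% called, median difference 0.09). In hAT-Tip100, 1 of 5 entries had a higher mean in TM, and 1 was called higher and 1 lower (40% called, median difference −0.07). Over all DNA transposons, 91 of 132 entries had a higher mean in TM, and over all superfamilies 297 of 554. These signs include entries that were not called and were not tested as a group.

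Of 19 hAT-Ac entries, 2 were called higher and 1 lower (15.8% called), and the lower one had the smallest adjusted p. This was hAT-Ac-12, at 10.76 and 10.68 in MZ and at 10.13, 10.04, 10.12 and 10.05 in TM (−0.64, SE 0.066, limma adjusted p = 0.0012), with AC beside MZ (10.64 to 10.72). In CMC-EnSpm, 3 of 15 entries were called (20% against 23.3% of all entries), each of them higher. Directions of calls with MZ 1 or MZ 2 left out were not read, since 1 MZ library then remains. A higher mean in TM was found in 8 of the 15. CMC-EnSpm-11 was at 10.95 and 10.997 in MZ and at 11.31, 11.38, 11.27 and 11.34 in TM (0.35, SE 0.057, limma adjusted p = 0.00545). It missed the threshold with AC testes in the fit. hAT-1, the only entry of its name, was at 10.997 and 10.87 in MZ and 11.18 to 11.23 in TM (0.27, limma adjusted p = 0.0169), and missed the threshold without TM 1 (0.26), TM 2 (0.27) or TM 3 (0.27).

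MULE-MuDR and Maverick elements had 3 entries each. In MULE-MuDR 1 entry was called higher and 1 lower, and in Maverick 0 were higher and 2 lower (each 66.7% called against 23.3% of all entries). Mavericks are very large DNA transposons that encode their own DNA polymerase. Maverick-2 was at 12.42 and 12.44 in MZ and at 11.96, 11.83, 11.95 and 12.11 in TM (−0.47, SE 0.076, limma adjusted p = 0.00545). Maverick-3 was at 12.39 and 12.97 in MZ and at 12.20, 12.09, 12.16 and 12.02 in TM (−0.57, SE 0.14, limma adjusted p = 0.0277). The 2 MZ libraries of Maverick-3 were far apart, and its difference was −0.86 without MZ 1 and −0.28 without MZ 2, and missed the threshold without TM 2 (−0.56), TM 3 (−0.58) or TM 4 (−0.54). Maverick-1 overlapped between the species (0.06, limma adjusted p = 0.547).

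MULE-MuDR-1 was higher, at 9.07 and 9.04 in MZ and 9.32 to 9.46 in TM (0.34, limma adjusted p = 0.0162), and missed the threshold without TM 1 (0.34), TM 2 (0.32) or TM 3 (0.35). MULE-MuDR-3 was lower, at 12.57 and 12.78 in MZ and 12.39 to 12.45 in TM (−0.26, limma adjusted p = 0.0311), and missed it without MZ 2 (−0.15), TM 1 (−0.25), TM 2 (−0.27), TM 3 (−0.25) or TM 4 (−0.26).

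In the group the table names NA-DNA, 3 of 22 entries were called (13.6% against 23.3% of all entries) and all were higher in TM. The median difference of the group was −0.0050, and 10 of its 22 entries had a higher mean in TM. NA-DNA-6 was at 8.10 and 7.71 in MZ and at 8.63, 8.86, 8.62 and 8.73 in TM (0.81, SE 0.13, limma adjusted p = 0.00502). NA-DNA-18 was at 10.21 and 10.25 in MZ and at 10.73, 10.72, 10.73 and 10.75 in TM (0.50, SE 0.056, limma adjusted p = 0.00142), with both species held within a narrow range. NA-DNA-22, the entry with the highest level in all 6 libraries, was the most variable one. It was at 16.92 and 14.92 in MZ and at 14.83, 15.35, 15.20 and 15.93 in TM, so the MZ libraries enclosed the TM libraries. It made up 8.93% of the summed linear values of MZ 1 and 2.21 to 4.70% of the other 5 libraries. Its difference of −0.59 (SE 0.51, limma adjusted p = 0.432) was 0.41 without MZ 1 and −1.60 without MZ 2.

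The other most abundant entries differed little. Helitron-1, a transposon thought to replicate by a rolling circle, was at 14.01 and 14.14 in MZ and at 14.43, 14.25, 14.39 and 14.24 in TM, where every TM library was above both MZ libraries (0.25, SE 0.077). It did not reach the threshold (limma adjusted p = 0.0535), but passed it under scaling to the TE-mapping total, with or without NA-DNA-22 in that total, and with robust moderation in limma. Its difference was 0.31 without MZ 2. L2-6 was nearly equal in all libraries (14.02 to 14.09, difference −0.00). L2-8 (0.11) and L1-3 (0.14) were not called (limma adjusted p = 0.184 and 0.109), and their differences were 0.16 and 0.22 without MZ 1. L1-3 passed the threshold under scaling to the TE-mapping total.

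Families that the study lists as likely active in recent evolutionary time gave 0 calls between TM and MZ by limma, against 23.3% of all entries, and 4 of their entries had an unadjusted p under 0.05. Of 15 such families, 14 have entries in the table, and their 19 entries differed by −0.27 (ERV1-3 LTR) to 0.29 (DIRS-1), with a median of 0.06. Activity was inferred by the study from TE insertions polymorphic in AC populations, not in TM or MZ. PiggyBac-5 came closest to the threshold, at 9.78 and 9.65 in MZ and at 10.02, 9.90, 9.98 and 9.92 in TM (0.24, SE 0.074, limma adjusted p = 0.0521). TcMar-Tc2-1, hAT-Ac-18 and hAT-Tip100-1 differed by 0.01, −0.01 and −0.02, with SEs of 0.065, 0.066 and 0.056. Single libraries mattered for some of the others. ERV1-7 internal was at 12.71 and 12.10 in MZ and 12.57 to 12.67 in TM, and its difference of 0.21 was 0.52 without MZ 1 and −0.09 without MZ 2. Without MZ 1 the difference was 0.31 for PiggyBac-5, 0.35 for ERV1-10 LTR, −0.24 for CMC-EnSpm-16 and −0.38 for ERV1-3 LTR. Without MZ 2 it was 0.22 for Gypsy-12 internal, −0.17 for ERV1-4 internal, −0.20 for ERV1-3 internal and 0.48 for DIRS-1. The 0 calls also depended on the settings with all 6 libraries kept. PiggyBac-5 and ERV1-10 LTR passed the threshold under scaling to the TE-mapping total. PiggyBac-5 also passed with a minimum of 100, with AC testes in the fit, without the mean trend or with robust moderation. ERV1-3 LTR passed under centring on the library median, with a pseudocount of 10, with no minimum or without the mean trend. Of the wider list of 61 families with many insertion polymorphisms, 57 have entries, and 3 of these 67 entries were higher and 3 lower (8.96% called against 23.3% of all entries).

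The median gap between the 2 MZ libraries was 0.16 and the median range of the 4 TM libraries was 0.15, a range over more libraries. A gap of at least 0.5 between MZ 1 and MZ 2 was found in 36 entries. Calls were spread over the range of levels, with 20% of the entries below a mean level of 8, 20.2% from 8 to 10, 26.7% from 10 to 12 and 19.3% from 12 upwards.

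AC testes, mapped to their own genome and in the same table, were set against both species. Of the 129 called entries, the AC mean was nearer to the TM mean in 61 and nearer to the MZ mean in 68, and it lay between the 2 means in 65. Of the 425 entries that were not called, the AC mean was nearer to TM in 244 (57.4%) and nearer to MZ in 181. Among the 58 entries higher in TM it was nearer to TM in 28, and among the 71 lower ones in 33. Groups with a wide gap leave more room between them. The MZ mean also rests on 2 libraries and the TM mean on 4, so the MZ mean is the less certain one. These counts are therefore descriptions and were not tested.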

How the data were processed

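Small RNA libraries of testes were analysed from the values the authors deposited. According to the methods and the submitters' processing notes, the authors removed adapters and kept reads of 24 to 35 nucleotides with cutadapt 1.15, mapped them to the AC genome fAstCal1.2 with STAR 2.5.4b, placing reads with several matches at random, counted them over a curated TE annotation with featureCounts 1.6.0, and normalised the counts with DESeq2. The deposited values are rlog values, a log2 scale, with 1 value for each TE family in each library. They carry no read totals, so the depth behind a value is unknown here and count tests were not run.

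Entries whose mean reached 10 after conversion to the linear scale were fitted with limma 3.58.1 in R 4.3.3 (4 TM against 2 MZ libraries, mean trend, two-sided, Benjamini-Hochberg adjustment over 554 entries, threshold 0.05). The same fit was run on the internal minus LTR difference of each element. The fit was tested on simulated data. Class medians were compared by exact permutation of the libraries. Python 3.11.15, pandas 2.3.3, numpy 2.4.6, scipy 1.17.1 and matplotlib 3.10.9 were used for tables and figures. Superfamilies and lists are described by counts and medians, without tests.

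Entries were named by rule: the 10 largest called differences without overlap in each direction, the other entry of those elements, entries of the families the study lists as likely active, the 5 most abundant, called entries of superfamilies with at most 3 entries, and the smallest adjusted p in superfamilies with at least 10. Other entries named in the text were chosen after their values were seen. The members, lists and tests were chosen with earlier results of these data known. Alternatives were 3 other scalings, a pseudocount of 10, no minimum and a minimum of 100, AC testes in the same fit, the replicate number as a block, limma without trend or with robust moderation, TM 1 and 3 averaged, each library left out, and the default TE annotation of the same libraries.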

Additional observations from a re-analysis of the deposited data

Results flagged for a closer look

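In 3 of the 68 named entries, 1 of the 4 TM libraries stood apart from the other 3, and chance alone would give this in about 1 of 20 groups. Gypsy-95 internal was at 9.71 in TM 2, against 9.94 to 9.98 in the others. ERV1-3 internal was at 13.04 in TM 4, against 13.07 in the others. CMC-EnSpm-15 was at 11.86 in TM 1, against 11.82 in the others. The groups of 2 MZ libraries are too small for this comparison.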

How the results depend on the processing

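Leaving out 1 library gave 62 to 154 called entries (22 to 81 higher and 40 to 79 lower in TM), 30 to 56 elements whose internal and LTR entries changed differently, and medians of 0.01 to 0.03 over all entries, 0.05 to 0.11 for DNA, −0.0030 to 0.024 for LINE, −0.025 to 0.024 for LTR, 0.18 to 0.31 for Helitron-1 and −0.59 to 0.23 for SINE entries. With TM 1 and 3 counted as 1 sample, 63 entries were called (23 higher and 40 lower), all of them among the 129. Named entries that lost their call in this fit were Pao-27 internal and LTR, Pao-24 LTR, Gypsy-87 LTR, Maverick-3, MULE-MuDR-1, MULE-MuDR-3, Penelope-1, RTE-BovB-4 and hAT-1. With the fit using AC, MZ and TM testes together, 95 were called, 90 of them among the 129. Named entries that lost their call there were CMC-EnSpm-11, Gypsy-87 LTR, Pao-24 LTR and RTE-BovB-4. Scaling to the TE-mapping total lost the calls of Pao-27 internal, MULE-MuDR-3, Maverick-3 and RTE-BovB-4. Under every alternative of the curated table but the replicate block, 49 entries (16 higher and 33 lower) were called.

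The replicate block (the replicate number as a term of the fit) left 21 entries called (5 higher and 16 lower) and 0 elements with a different change of their 2 entries by limma, 31 of them with an unadjusted p under 0.05. TM and MZ share only numbers 1 and 2. In this fit, TM libraries with other numbers add neither to the species difference nor to the spread. The deviations of same-numbered libraries correlated at −0.36 and −0.21. With 2 MZ libraries, MZ 1 and MZ 2 deviate equally with opposite sign, so TM 1 correlated at −0.36 with MZ 1 and at 0.36 with MZ 2. These correlations therefore cannot decide whether the numbers pair the samples.

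Medians near 0 changed sign. The LTR median was 0.024 under scaling to the TE-mapping total and 0.0028 under centring on the library median, and the median over all entries was −0.021 with the default annotation, where 111 of 682 entries (16.3%) were called, 56 higher and 55 lower. Uncalled entries also changed sign: under scaling to the TE-mapping total, hAT-Ac-18 (0.025), hAT-Tip100-1 (0.013) and L2-6 (0.030), under centring, hAT-Ac-18 (0.0046) and L2-6 (0.0094), under the replicate block, hAT-Ac-18 (0.020), and with TM 1 and 3 as 1 sample, TcMar-Tc2-1 (−0.0063). With 1 library left out, the differences of uncalled entries that changed sign ranged from −0.49 to 0.17 for Gypsy-73 LTR, −0.057 to 0.18 for Gypsy-30 LTR, −0.010 to 0.27 for Gypsy-55 LTR, −0.055 to 0.076 for TcMar-Tc2-1, −0.022 to 0.020 for hAT-Ac-18, −0.20 to 0.092 for ERV1-3 internal, −1.60 to 0.41 for NA-DNA-22, −0.093 to 0.52 for ERV1-7 internal, −0.032 to 0.16 for ERV1-7 LTR and −0.020 to 0.017 for L2-6. The cause of these changes was not tested. Of the 37 entries that were named and called, 26 were called without each library in turn.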
